A study of Mus musculus with 6 samples.

Results

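The heat shock and DnaJ chaperone genes were taken by name from the gene table of adult mouse hippocampus: the Hspa genes (Hsp70 proteins), Hsph1 (an Hsp110 protein), the Hsp90 genes, Hspd1 and Hspe1 (the mitochondrial chaperonin and its co-chaperonin), the Hspb genes (small heat shock proteins) and the Dnaja, Dnajb and Dnajc genes (J-domain proteins). The name rule found 72 of the 23235 genes in the table. Hippocampi came from 6 male mice (3 pairs) aged 60 to 70 days, and all 6 mice carried Rbfox1 alleles flanked by loxP sites (Rbfox1 fl/fl). Of these, 3 were wildtype (Rbfox1 fl/fl; +/+), with no Cre recombinase, and 3 were Nes-cKO (Rbfox1 fl/fl; Nes/+), in which a Nestin-driven Cre recombines in neural progenitors, and neurons and glia inherit the deletion. Because the wildtype mice lack Cre, loss of Rbfox1 and the presence of Cre cannot be told apart. Levels are the authors' FPKM (fragments per kilobase of transcript, scaled to sequencing depth), a unit per length with 1 value per gene and genotype, so no value below has a spread between mice, and the reads per library are unknown.

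Chaperones bind unfolded or partly folded proteins and help them fold, assemble, cross membranes or be degraded. Hsp70 proteins do this in a cycle driven by ATP: a J-domain protein delivers the client and stimulates ATP hydrolysis, and a nucleotide exchange factor resets the cycle. Hsp90 proteins act later on selected clients such as kinases and steroid receptors, small heat shock proteins hold clients without ATP, and in neurons several J-domain proteins serve synaptic vesicle release and recycling.

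Rbfox1 itself stood at 67.5 FPKM in wildtype hippocampus and 23.0 in Nes-cKO, which is 34.0% of the wildtype level. All 12 measured pan-neuronal markers were at 12.4 FPKM or more in wildtype, and none passed the authors' test. All 8 markers of hippocampal neurons were above 1 FPKM in both genotypes, with the CA1 genes Fibcd1 and Spink8 lower, the CA3 gene Grik4 higher and the other 5 not passed. Of 18 oligodendrocyte markers, 13 were lower and none higher in Nes-cKO, with a summed level of 2109 FPKM in wildtype hippocampus and 1474 in Nes-cKO. Of 12 measured markers of cerebellar granule and Purkinje cells, 7 were higher and none lower. The summed level was 290 FPKM in wildtype hippocampus and 366 in Nes-cKO, with none of these markers at 0. The largest parts of these sums were Pcp4 (174 and 217 FPKM), Calb1 (45.1 and 42.6 FPKM) and Itpr1 (36.4 and 32.9 FPKM). None of these passed, so the sums say little about the markers that were higher. Of the 7 higher markers, En2 and Ppp1r17 reached 1 FPKM through Nes-cKO alone, so their ratio above 1 was fixed by that. The granule cell gene Gabra6, for example, was at 3.51 FPKM in wildtype and 10.5 FPKM in mutant libraries. Among 14 astrocyte markers 2 were higher and 1 lower, and their sum was 1561 FPKM in wildtype tissue and 1453 in Nes-cKO. Among 16 endothelial and mural cell markers 1 was higher, none of 12 microglia markers passed, and of 6 measured choroid plexus and ependymal markers Ttr was lower and Prlr higher, the latter again reaching 1 FPKM in Nes-cKO alone. The part of these marker differences in the chaperone values was not tested. In whole tissue, fewer cells of a type and less RNA per cell cannot be told apart.

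Most chaperone transcripts stood at nearly the same level in both genotypes, and Dnajb5, Hspb8 and Hspa14 were the exceptions that passed. Of the 72 genes, 62 had an FPKM of 1 or more in either genotype and are counted below. In the authors' deposited table, 3 of these 62 passed a q of 0.05 as higher in Nes-cKO (4.84%), beside 4.69% of all 12685 tested genes at that level. None passed as lower, beside 2.41% of all such genes. At an unadjusted p under 0.05 in the authors' deposited table, 6 were higher and 2 lower, together 12.9% of the 62 beside 14.6% of all genes. On the log2 scale the ratio (Nes-cKO to wildtype) had a median of 0.047 over the 62 genes and 0.030 over all tested genes at that level, and its absolute value a median of 0.070 and 0.11. A ratio within 1.2-fold was found for 52 of the 62 chaperone genes (83.9%) and for 82.2% of all tested genes. The chaperone genes were more abundant, with a median of 17.4 FPKM in wildtype against 8.80 FPKM. These shares lie near those of all genes.

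**Figure D1:**
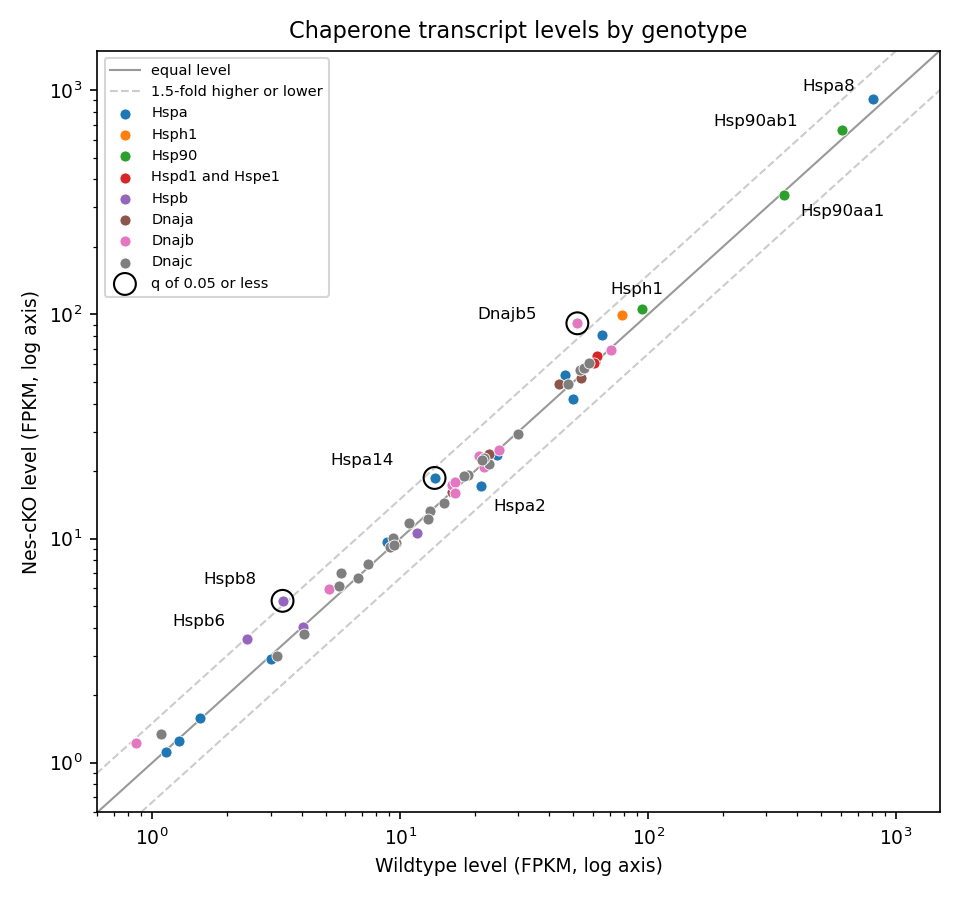
Level of each of the 62 chaperone genes in wildtype (horizontal) and Nes-cKO (vertical) hippocampus, in FPKM on log axes, coloured by family. Each point is 1 gene with the authors' single value per genotype, the solid line marks equal levels and the dashed lines a 1.5-fold difference. Points follow the solid line over the whole range, up to Hspa8 at 807 and 912 FPKM, and of the 3 circled genes Dnajb5 and Hspb8 lie beyond the 1.5-fold line.

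The 10 genes under 1 FPKM were Dnajb7, Dnajb8, Dnajb13, Dnajc5b, Dnajc5g, Dnajc22, Hspb2, Hspb3, Hspb7 and Hspb9, and 7 of them had no test. Dnajc5g was listed at 0 in both genotypes. The nearest gene under the limit was Hspb3, at 0.433 FPKM in wildtype hippocampus and 0.941 in Nes-cKO, and the nearest above it was Hspa1a, at 1.14 and 1.11 FPKM. Dnajb3, at 0.859 and 1.22 FPKM, passed the limit through Nes-cKO alone, so its ratio above 1 was fixed by that.

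Genes of cytosolic chaperones made up much of the chaperone transcript pool. Hspa8, which encodes the constitutive Hsc70 that also uncoats clathrin vesicles, stood at 807 FPKM in wildtype hippocampus and 912 in Nes-cKO, and ranked 28 among all 23235 genes in wildtype. Hsp90ab1, the constitutive cytosolic Hsp90, stood at 607 and 663 FPKM, and Hsp90aa1, the inducible form, at 352 and 341 FPKM. Together these 3 genes held 54.6% of the summed wildtype FPKM of the 72 genes. None of the 3 passed, with q = 0.657 for Hspa8, 0.826 for Hsp90ab1 and 0.983 for Hsp90aa1 in the authors' deposited table. Hsp90b1, the Hsp90 of the endoplasmic reticulum (ER), was the fourth most abundant, at 94.1 and 105 FPKM. Reads of some of these genes could be shared with near-identical copies. Of the 50-base stretches in Hspa8 transcripts of the GENCODE M21 annotation, 67.3% also occur in transcripts of other genes, most of them in the gene model Gm15459, and the share was 50.1% for Hsp90aa1 and 4.13% for Hsp90ab1. How the authors' counting treated such reads is not given in the sources used here.

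Among the other Hsp70 genes, Hspa14 rose and the stress-inducible pair Hspa1a and Hspa1b stayed close to 1 FPKM. Hspa14 (mm9 chromosome 2, 3406126 to 3430086), an Hsp70 that works at the ribosome with the J-domain protein Dnajc2, rose from 13.8 FPKM in wildtype to 18.6 FPKM in Nes-cKO, 1.35-fold (q = 0.0187, the authors' deposited table). Its partner Dnajc2 stood at 10.8 and 11.7 FPKM and did not pass (q = 0.898, the authors' deposited table). In Hspa14 transcripts, 15.6% of 50-base stretches are shared with 1 other gene model, Gm45902. Hspa5, which encodes the ER Hsp70 known as BiP, stood at 65.1 and 81.3 FPKM, a ratio of 1.25 (q = 0.0778, the authors' deposited table). Hspa4, an Hsp110 relative that acts as nucleotide exchange factor, stood at 46.3 and 53.6 FPKM, and its relative Hspa4l at 24.7 and 23.5 FPKM. Hsph1, the Hsp110 gene proper, stood at 78.7 and 99.8 FPKM, a ratio of 1.27 (q = 0.0589, the authors' deposited table).

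The lowest ratios of all 62 genes were those of Hspa2 and Hspa12a, and neither passed. Hspa2, an Hsp70 needed in spermatogenesis, stood at 21.2 FPKM in wildtype hippocampus and 17.1 in Nes-cKO, which is 80.8% of wildtype (q = 0.128, the authors' deposited table). Hspa12a, a distant Hsp70 relative, stood at 49.7 and 41.8 FPKM, 84.1% of wildtype (q = 0.270, the authors' deposited table). The unadjusted p of these genes, 0.0122 and 0.0348 in the authors' deposited table, were the only ones under 0.05 among the 24 genes with a ratio below 1. Oligodendrocyte markers fell in the same libraries, with a median log2 ratio of -0.50 over 18 genes beside -0.31 for Hspa2, and their part in this difference was not tested.

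The stress-inducible Hsp70 genes Hspa1a and Hspa1b stood at 1.14 and 1.28 FPKM in wildtype and 1.11 and 1.25 FPKM in Nes-cKO. These genes are near copies: 60.3% of the 50-base stretches in Hspa1a transcripts and 62.3% in Hspa1b transcripts occur in other genes, nearly all in each other, so the split between them is uncertain. Hspa1l, their neighbour on chromosome 17, stood at 3.00 and 2.89 FPKM. Hspa9, the mitochondrial Hsp70 mortalin, stood at 61.1 and 61.5 FPKM, Hspa13 at 8.81 and 9.67 FPKM and the endothelial Hspa12b at 1.56 and 1.58 FPKM. Over the 13 Hspa genes the median log2 ratio was 0.0085, with 7 ratios above 1 and 6 below, and it was 0.14 when only genes of 5 FPKM or more were kept. Of the 13 genes Hspa14 alone was called higher (7.69%, beside 4.69% of all tested genes at 1 FPKM or more).

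**Figure D2:**
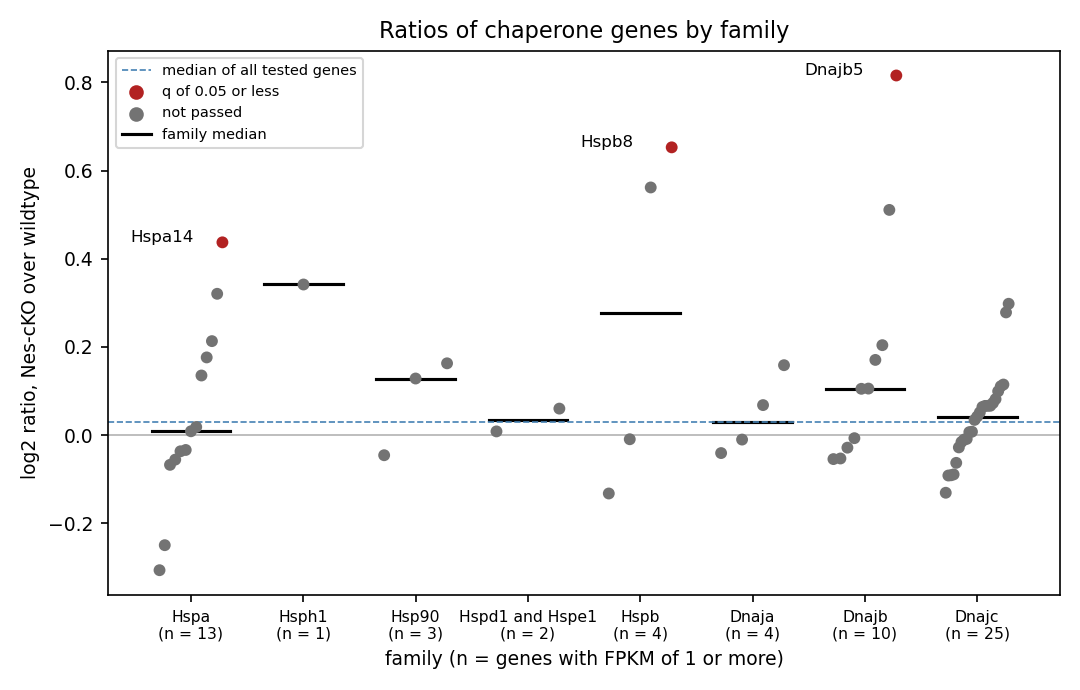
log2 ratio of Nes-cKO over wildtype FPKM for each of the 62 chaperone genes (points), ordered by value within its family, with the family median (black bar) and the median of all tested genes (dashed line at 0.030). Red points passed a q of 0.05 in the authors' deposited table: Hspa14 at 0.44, Hspb8 at 0.65 and Dnajb5 at 0.82. The 25 Dnajc genes lie between -0.13 and 0.30.

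The Hspb genes were low in abundance, at 11.6 FPKM or less in wildtype, and held 1 of the 3 rises. Of the 4 measured Hspb genes 1 was called higher (25%, beside 4.69% of all tested genes at 1 FPKM or more), a share resting on few genes. Hspb8 (mm9 chromosome 5, 116858504 to 116872873), which joins Hsp70 and the co-chaperone Bag3 in delivering misfolded proteins to autophagy, rose from 3.35 FPKM in wildtype to 5.27 FPKM in Nes-cKO. This was 1.57-fold (q = 0.0028, the authors' deposited table). Bag3 itself, which is not named by the rule, rose from 3.73 to 5.84 FPKM, also 1.57-fold (q = 0.00152, the authors' deposited table). The genes for this protein pair thus stood at similar levels and rose by nearly the same ratio. The list that holds Bag3 was drawn up with earlier results known, so this is no independent evidence. Hspb6, a small heat shock protein of muscle that is also expressed in brain, stood at 2.42 and 3.57 FPKM, a ratio of 1.48 (q = 0.0556, the authors' deposited table). Hspb1, which encodes Hsp25 in mouse, stood at 4.07 and 4.05 FPKM, although 48.8% of its 50-base stretches also occur in a pseudogene. Hspb11, an intraflagellar transport component, stood at 11.6 and 10.6 FPKM. Under 1 FPKM, Hspb3 at 0.433 and 0.941 FPKM had q = 0.0587 in the authors' deposited table, and Hspb2 stood at 0.626 and 0.373 FPKM. Small heat shock proteins are also expressed by vascular muscle cells and reactive astrocytes. The 14 astrocyte markers had a median log2 ratio of -0.036, with 8 ratios below 1, and they went both ways: Gfap rose from 106 to 214 FPKM and Glul fell from 461 to 313 FPKM (each q = 0.00152, the authors' deposited table). The 16 endothelial and mural cell markers had a median of 0.010, and the muscle genes Acta2 (7.36 and 6.73 FPKM) and Myh11 (1.44 and 1.47 FPKM) did not pass. The part of these cells in the Hspb8 level was not tested.

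The promoter of Hspb8 is shown because it is the 1 called gene of the 3 whose window held a heat shock element pair. Heat shock factors bind repeats of the letters GAA in alternating orientation, so a pair reads GAANNTTC or TTCNNGAA on either strand. Windows of 300 bases (250 before and 50 after each start site, RefSeq, build GRCm38.p6) were available for 58 of the 72 genes. The window of Hspb8 lies at chr5:116422815-116423114 on the minus strand. Its pair, in capitals, starts just after the start site and has the letters GAAGTTTC. Among the windows of the chaperone and partner genes, those of Bag3, Hspb6, Hspb1 and the TRiC subunit gene Cct2 hold the same letters. Bag3 had a ratio of 1.57 and was called. Hspb6 had a ratio of 1.48, Hspb1 of 0.993 and Cct2 of 1.07, and none of these passed. The part of these letters in the ratios was not tested.

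Hspb8: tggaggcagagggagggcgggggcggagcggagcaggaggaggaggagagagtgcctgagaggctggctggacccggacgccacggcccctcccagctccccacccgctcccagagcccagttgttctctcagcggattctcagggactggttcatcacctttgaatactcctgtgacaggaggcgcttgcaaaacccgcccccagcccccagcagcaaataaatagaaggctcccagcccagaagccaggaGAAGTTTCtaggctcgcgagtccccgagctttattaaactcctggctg

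A GAANNTTC pair was found for 14 of the 58 genes (24.1%) beside 9.04% of all 27025 genes with a window, and TTCNNGAA for 6 of the 58 (10.3%) beside 9.60%. A run of at least 3 units in a row, which overlaps both pairs, was found for Dnajb6, Hspd1, Hspe1 and Hsph1 (6.90% of the 58 beside 0.662% of all genes). Some elements are counted more than once in these shares. The windows of Hspd1 and Hspe1 share 285 bases, and the near copies Hspa1a and Hspa1b hold the same pair at the same place. A match describes letters in a window and is not a binding site. Of the 14 measured genes with either pair, Hspb8 alone was called higher and none lower, and their median log2 ratio was -0.00067. Of the 37 measured genes with neither pair, Dnajb5 and Hspa14 were called higher and none lower, with a median of 0.018. Of all tested genes at 1 FPKM or more, 4.69% were called higher and 2.41% lower. The counts with and without a pair are small, and their difference was not tested. The cyclic AMP response element TGACGTCA was found for Dnajc27 only (1.72% of the 58 beside 2.03% of all genes).

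Heat shock factor transcripts were at similar levels in both genotypes. Hsf1, the main heat shock regulator, stood at 14.8 FPKM in wildtype hippocampus and 15.8 in Nes-cKO, and Hsf2 at 8.12 and 9.02 FPKM. None of the 4 measured genes of this list passed, and the highest ratio was 1.26 for Hsbp1, a factor-binding protein gene at 139 and 176 FPKM (q = 0.0537, the authors' deposited table).

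The mitochondrial chaperonin genes Hspd1 and Hspe1 stood at nearly equal levels and showed almost the same ratio. Hspd1 encodes Hsp60, the barrel-shaped chaperonin, and Hspe1 encodes Hsp10, its lid. Hspd1 stood at 62.5 FPKM in wildtype hippocampus and 65.1 in Nes-cKO, and Hspe1 at 60.2 and 60.6 FPKM (q = 0.968 and 0.997, the authors' deposited table). Their loci on mm9 chromosome 1 point away from each other with 215 bases between them, and their RefSeq promoter windows share 285 bases on opposite strands. In Hspd1 and Hspe1 transcripts, 39.7% and 36.1% of 50-base stretches also occur in other gene models. All 8 genes assigned to mitochondria by textbook location had ratios within 1.2-fold, beside 82.2% of all tested genes at 1 FPKM or more. They included Dnaja3 (22.8 and 23.9 FPKM), Dnajc15 (29.9 and 29.3 FPKM) and Dnajc19 (22.8 and 21.4 FPKM). These locations were assigned after values were seen. The Hspe1 window, at chr1:55087898-55088197 on the plus strand, and a window of Hsph1, at chr5:149636266-149636565 on the minus strand, are shown because both hold a run of at least 3 units, in capitals with any further pair. They belong to genes with log2 ratios of 0.0082 and 0.34, of which neither was called.

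Hspe1: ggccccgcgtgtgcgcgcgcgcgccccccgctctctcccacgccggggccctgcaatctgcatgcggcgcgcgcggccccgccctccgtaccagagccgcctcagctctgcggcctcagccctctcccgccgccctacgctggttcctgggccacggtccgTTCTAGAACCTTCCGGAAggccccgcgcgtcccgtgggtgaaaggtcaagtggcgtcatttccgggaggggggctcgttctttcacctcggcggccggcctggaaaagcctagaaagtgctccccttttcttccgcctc

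Hsph1: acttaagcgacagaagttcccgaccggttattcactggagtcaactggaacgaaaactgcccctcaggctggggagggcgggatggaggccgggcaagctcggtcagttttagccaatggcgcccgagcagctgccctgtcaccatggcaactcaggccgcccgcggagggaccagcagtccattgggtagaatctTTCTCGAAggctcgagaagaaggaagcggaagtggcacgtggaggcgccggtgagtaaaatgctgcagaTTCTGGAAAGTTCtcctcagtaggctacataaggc

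The chaperone genes assigned to the ER mostly had ratios above 1, and none passed. Of 10 genes assigned to the ER by textbook location, 8 had a ratio above 1, beside 57.7% of all tested genes at that level. The median log2 ratio of the 10 genes was 0.15, and Dnajc3 counted among the 8 at a ratio of 1.01. The locations were assigned after values were seen and not to every chaperone gene, so this share is no independent evidence. Besides Hspa5 and Hsp90b1, Dnajb11, a soluble ER partner of BiP, stood at 20.8 and 23.4 FPKM, and Dnajc1, a membrane-bound partner, at 5.77 and 6.997 FPKM. Dnajc3, which was first described as an inhibitor of the kinase PKR, stood at 9.11 and 9.15 FPKM, Dnajc10, an ER disulfide reductase, at 15.0 and 14.4 FPKM, and Dnajb9, a BiP regulator, at 16.6 FPKM in wildtype and 96.3% of that in Nes-cKO. In a list of 21 other measured genes of ER folding and the unfolded protein response, 2 rose, none fell and 19 did not pass. The share that rose was 9.52%, beside 4.69% of all tested genes at 1 FPKM or more, and the median log2 ratio was 0.14. The rises were in transcription factor genes, Atf4 (from 52.5 to 73.2 FPKM, 1.39-fold) and Xbp1 (from 29.0 to 38.7 FPKM, 1.34-fold) (q = 0.00152 and 0.0125, the authors' deposited table). Xbp1 is activated by splicing of its transcript and Atf4 by translation, and neither was measured by these levels. The ER chaperone gene Calr (146 and 176 FPKM) and the stress factor gene Ddit3 (16.7 and 17.0 FPKM) did not pass. The ER stress element, whose letters span CCAAT and CCACG at a fixed distance, was found in windows of Hspa5, Hsp90b1 and Dnajc3, 5.17% of the 58 genes beside 0.137% of all genes. The Hspa5 window, at chr2:34771840-34772139 on the plus strand, is shown as that of the ER gene with the highest ratio, with the element in capitals. The 3 genes that share the element had ratios of 1.25, 1.12 and 1.01.

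Hspa5: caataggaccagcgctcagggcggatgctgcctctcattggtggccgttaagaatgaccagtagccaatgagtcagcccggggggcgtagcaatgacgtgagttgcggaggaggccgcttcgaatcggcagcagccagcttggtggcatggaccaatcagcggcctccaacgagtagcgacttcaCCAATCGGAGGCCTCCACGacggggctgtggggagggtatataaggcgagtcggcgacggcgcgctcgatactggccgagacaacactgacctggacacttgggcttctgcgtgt

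Among the J-domain genes, Dnajb5 stood out with the largest ratio of all 62 chaperone genes. Dnajb5 (mm9 chromosome 4, 42965966 to 42971604), a cytosolic J-domain protein that binds class II histone deacetylases in heart muscle cells, rose from 51.8 FPKM in wildtype to 91.2 FPKM in Nes-cKO. The ratio was 1.76 (q = 0.00152, the authors' deposited table), a q that 491 genes share as the smallest in it. In wildtype Dnajb5 was second in its family to Dnajb6, a suppressor of polyglutamine aggregation at 70.9 and 69.5 FPKM, and in Nes-cKO it was above Dnajb6. By the same annotation no 50-base stretch of Dnajb5 or Hspb8 transcripts was found in another gene, and the loci of the 3 called genes overlapped no other gene of the table. Dnajb2, a neuronal J-domain protein with ubiquitin-interacting motifs, stood at 25.0 and 24.9 FPKM. The heat-inducible Dnajb1 stood at 16.1 and 17.3 FPKM, and Dnajb4, at 21.7 and 20.9 FPKM, was among the 2 lowest ratios of the family with Dnajb9. Of 10 measured Dnajb genes 1 rose (10%, beside 4.69% of all tested genes at 1 FPKM or more) and 9 did not pass. The median log2 ratio of the family was 0.11.

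**Figure D3:**
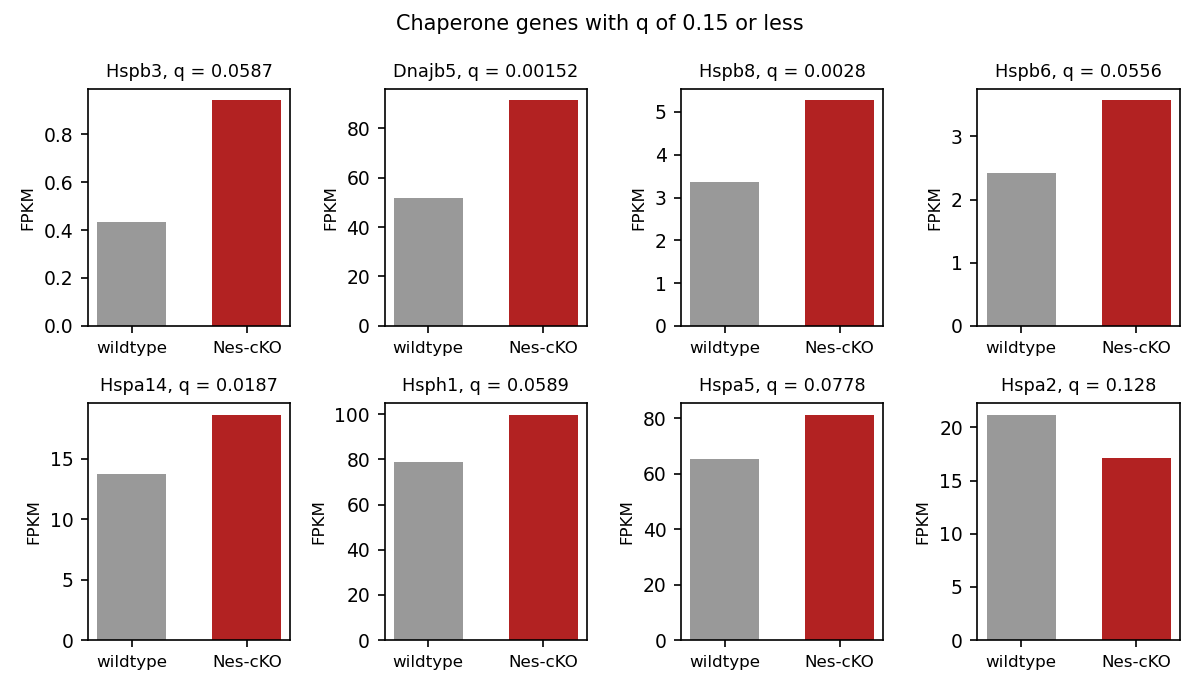
FPKM in wildtype (grey) and Nes-cKO (red) for the 8 chaperone genes with a q of 0.15 or less in the authors' deposited table, 1 panel per gene, ordered by ratio, with each axis starting at 0. Bars are the authors' single value per genotype and carry no error. Dnajb5, Hspb8 and Hspa14 are under 0.05, Hspb3 lies below 1 FPKM in both genotypes, and Hspa2 is the gene that is lower in Nes-cKO.

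None of the 4 Dnaja or 25 measured Dnajc genes passed, at an adjusted q or at an unadjusted p under 0.05 in the authors' deposited table. Of all tested genes at 1 FPKM or more, 4.69% were called higher and 2.41% lower, and 14.6% had an unadjusted p under 0.05 there. The Dnaja genes are the closest relatives of the bacterial DnaJ, and those of the cytosol, which leaves out the mitochondrial Dnaja3, partner Hsc70 in folding. Dnaja1 stood at 43.8 and 48.9 FPKM, Dnaja2 at 53.5 and 52.0 FPKM and Dnaja4 at 16.2 and 16.1 FPKM. The most abundant Dnajc genes were Dnajc7 (57.8 and 60.7 FPKM), which links Hsp70 and Hsp90, Dnajc6 (55.1 and 57.7 FPKM), the neuronal auxilin that recruits Hsc70 to clathrin coats, and Dnajc5 (53.3 and 56.4 FPKM), the cysteine string protein of synaptic vesicles. These neuronal genes had ratios of 1.05 and 1.06 for Dnajc6 and Dnajc5 (q = 0.966 and 0.929, the authors' deposited table). The highest Dnajc ratios were those of Dnajc25 (1.09 and 1.34 FPKM) and Dnajc1, and the lowest those of Dnajc24 (4.10 and 3.74 FPKM) and Dnajc9 (13.0 and 12.2 FPKM), a histone chaperone. Dnajc1 and 7 other measured chaperone genes share their listed locus with another gene, among them Dnaja1 with Smu1, so their values may include reads of that gene.

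Of the 320 splicing events the authors listed for a change above 10 percentage points, 3 were in chaperone genes, and none passed a test of the reads, beside 24.1% of the 249 listed cassette exons and 22.9% of the 35 listed alternative 5' splice sites that passed. Dnajc24 encodes a J-domain protein needed for diphthamide, a modified histidine of elongation factor eEF2. Its 139 nt cassette exon (mm9 chromosome 2, 105821139 to 105821277, minus strand) had an inclusion ratio of 88.5% in wildtype and 78.1% in Nes-cKO by the authors' estimate (p = 2.22e-05, the authors' deposited table). Inclusion reads were counted as the rounded mean of both inclusion junctions, so the totals below are smaller than the reads observed. On this count inclusion was 85.7% of 105 in wildtype (95% Wilson interval 77.8% to 91.1%). It was 79.5% of 88 in Nes-cKO (69.97% to 86.7%), and the intervals overlap. Fisher's exact test (two-sided) on these pooled counts gave an adjusted p of 0.406 over 249 cassette exons, a comparison of the libraries and not of the mice. Intervals cover counting error only. The exon is shown because it holds the codons for histidine, proline and aspartate, in capitals, the motif with which J domains stimulate Hsp70. It was read from the GENCODE M21 transcript in which exons of 147, 139 and 69 nt follow each other as in the authors' table, where it is exon 3 of 5 and all of its bases are coding. Its length leaves a remainder of 1 after division by 3, so transcripts without it change reading frame.

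Dnajc24 exon: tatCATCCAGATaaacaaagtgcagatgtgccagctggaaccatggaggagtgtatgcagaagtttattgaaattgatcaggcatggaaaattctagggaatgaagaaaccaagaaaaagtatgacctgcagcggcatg

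The other listed events were a pair of entries for the same 6 nt extension at a 5' splice site of Dnajb12, an ER membrane J-domain protein (mm9 chromosome 10, 59359244 to 59359249). The authors' inclusion ratios were 65.7% and 54.1% in one entry and 64.8% and 54.4% in the other, which differ in the annotated length of the next exon and share all junction reads. Their p was 0.0204 and 0.0335 in the authors' deposited table. In GENCODE M21 the extension follows exon 8 of 9, downstream of the stop codon. By the rounded mean of both inclusion junctions, inclusion was 54.1% of 74 in wildtype (Wilson interval 42.8% to 64.9%) and 43.0% of 79 in Nes-cKO (32.7% to 54.0%). Fisher's exact test on these counts gave an adjusted p of 0.260 over 35 events. The read counts behind inclusion differed widely, with 76 and 5 reads in wildtype and 64 and 4 in Nes-cKO. The larger count lies at the border of exon and extension, which is contiguous in the genome, so its reads need not come from spliced transcripts. Only the smaller count, 5 and 4 reads, spans a splice from the extended site. The 54.1% and 43.0% average both counts, so they do not measure use of that site alone. By the smaller junction, inclusion was 12.8% in wildtype and 8.16% in Nes-cKO. The Dnajb12 transcript stood at 16.7 and 18.0 FPKM.

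Partners of the chaperones, listed by function, mostly showed the same small ratios. Of 8 measured subunits of TRiC, the cytosolic chaperonin that folds actin and tubulin, none passed. All had ratios above 1, with log2 ratios between 0.043 and 0.17. Of all tested genes at 1 FPKM or more, 57.7% had a ratio above 1, and their median log2 ratio was 0.030. None of 18 measured Hsp90 co-chaperones and immunophilins passed (median log2 ratio 0.080), including Stip1, which links Hsp70 to Hsp90, at 61.1 and 67.2 FPKM. None of 5 measured prefoldin subunits passed either. Of 13 genes for nucleotide exchange and Hsp70 binding factors Bag3 rose, none fell and 12 did not pass, with a median of 0.050. The share that rose was 7.69%, beside 4.69% of all tested genes at 1 FPKM or more. The ER exchange factor gene Hyou1 stood at 18.7 and 21.1 FPKM. The share called higher in these lists, and in all genes (4.69%), is given as a count and not as a test.

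**Figure D4:**
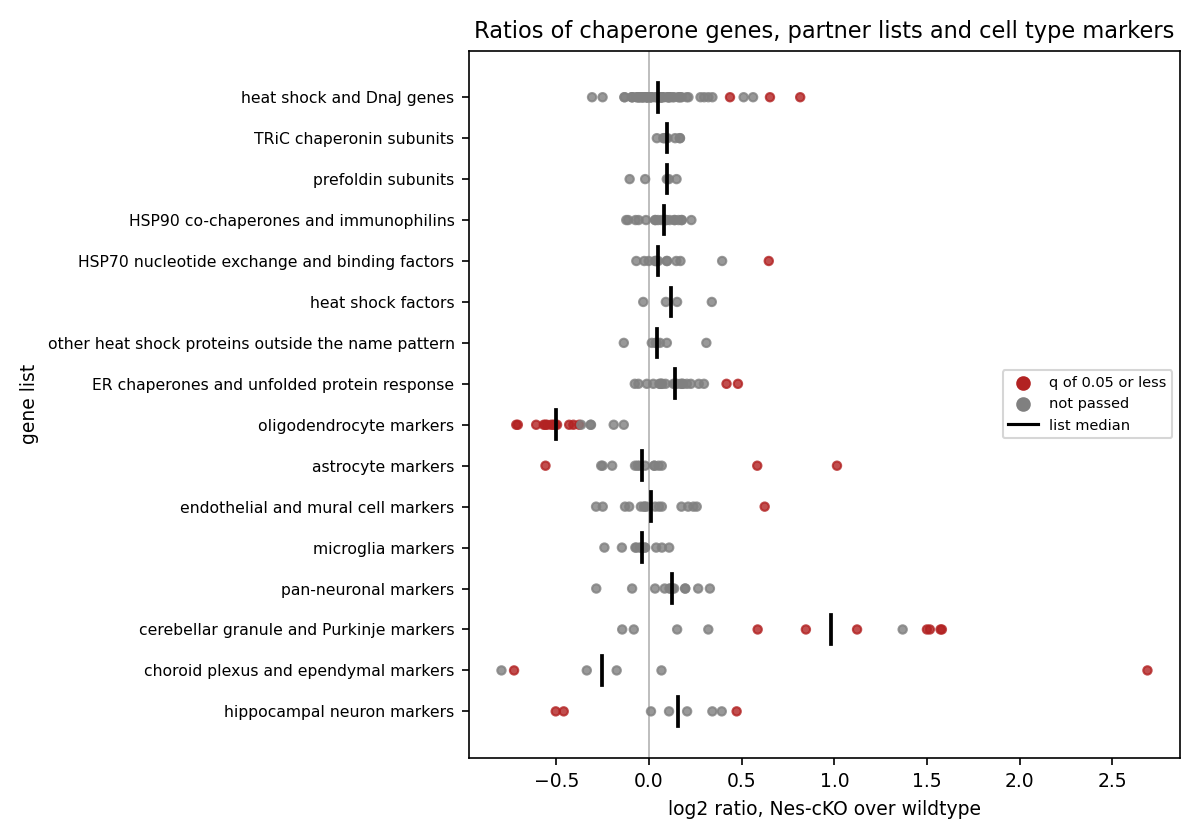
log2 ratio (Nes-cKO over wildtype FPKM) for the chaperone genes (top row), lists of partner genes and lists of cell type markers, with 1 point per gene of 1 FPKM or more and the list median as a black bar. Red points passed a q of 0.05 in the authors' deposited table. Chaperone and partner lists centre between 0.042 and 0.14, the oligodendrocyte markers at -0.50 and the cerebellar markers at 0.98.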

How the data were processed

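Per the labels' protocols, hippocampal RNA of 3 wildtype and 3 Nes-cKO mice was made into strand-specific libraries of messenger RNA and read as paired 50 bp reads. Cufflinks, Cuffdiff, CASAVA and the build mm9 are named in the submitters' processing notes. The aligner and tool versions are not given in the sources used here. For each gene and genotype the authors deposited 1 FPKM value, with Cuffdiff p-values and q-values, per the file headers. For each listed splicing event they deposited inclusion as a fraction per genotype, a p-value and junction read counts, again per the file headers.

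Ratios (Nes-cKO over wildtype) used the deposited FPKM without a pseudocount, and genes were called at a q of 0.05 as deposited. No expression test was run here. Junction reads (inclusion taken as the rounded mean of both inclusion junctions) were compared with Fisher's exact test, and adjusted by Benjamini-Hochberg over the events of a type. These steps were tested on simulated data, for splicing on cassette exons with equal inclusion junctions and a larger change than in the listed chaperone events. Whether the test could detect changes of their size was not tested. Gene and splicing coordinates are mm9, those of promoter windows (RefSeq) GRCm38.p6, all counted from 1. Windows of Dnajc11, Dnajc12, Dnajc18, Dnajc2, Dnajc22, Dnajc30, Dnajc5, Dnajc5b, Hsp90aa1, Hsp90ab1, Hspa13, Hspa8, Hspa9 and Hspb2 were not used here. Shared 50-base stretches were counted on the sense strand of GENCODE M21 transcripts.

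The members and lists were chosen with earlier results of these data known. Named genes are members past the threshold, all Hsp genes of 1 FPKM or more, the 3 most abundant, 2 highest and 2 lowest ratios of each Dnaj family, genes near 1 FPKM and called partner genes. Other names, the hippocampal marker list and the locations in the cell were chosen after values were seen. Python 3.11.15, numpy 2.4.6, pandas 2.3.3, scipy 1.17.1 and matplotlib 3.10.9 were used.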

Additional observations from a re-analysis of the deposited data

How the results depend on the processing

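The count of chaperone genes higher in Nes-cKO was 3 with a q of 0.05, 2 with a q of 0.01 and 6 with a q of 0.1 (the authors' deposited table), and the added genes were Hspb6, Hsph1 and Hspa5. It was 2 when a ratio of 1.5 or more was required as well, and 3 with no FPKM limit, with a mean of 1 FPKM over both genotypes or with a limit of 5 FPKM, which Hspb8 passed through Nes-cKO alone. Centring leaves the deposited q-values unchanged and could only move a called gene between higher and lower. The count stayed at 3, because all 3 called genes lay above the median of all tested genes. The count of lower genes was 0 under each of these. The median log2 ratio of the chaperone genes, 0.047, was 0.043 with a pseudocount of 1 FPKM, 0.016 after centring and 0.062 among genes of 5 FPKM or more. All 62 genes kept the sign of their log2 ratio with a pseudocount of 1 or 0.1 FPKM, but no pseudocount could change it. On centring 5 genes changed sign, none of them called. No listed splicing event of these genes passed when inclusion reads were counted as the smaller or as the sum of both junctions. With 1 value per genotype, leaving out a mouse could not be run. No paired analysis was possible because the columns carry no replicate numbers. Library depth is unknown, so genes under a few FPKM have a precision that cannot be stated.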

Other observations

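Of 7 measured genes for heat shock proteins whose symbols lie outside the name rule, 6 had ratios within 1.2-fold (85.7%, beside 82.2% of all tested genes at 1 FPKM or more). None of the 7 passed in the authors' deposited table. Serpinh1 alone had an unadjusted p under 0.05 there (14.3% of the 7, beside 14.6% of all such genes). Cryab, a small heat shock protein abundant in oligodendrocytes, stood at 46.2 FPKM in wildtype hippocampus and 42.1 in Nes-cKO, 91.0% of wildtype (q = 0.798, the authors' deposited table), and had the smallest decrease of the 18 oligodendrocyte markers listed. Serpinh1, the collagen chaperone Hsp47, stood at 5.76 and 7.14 FPKM (q = 0.254, the authors' deposited table). Trap1, the mitochondrial Hsp90, stood at 26.7 and 27.0 FPKM. Hspbap1, which encodes a protein that binds Hsp27 and was listed with the Hsp70 binding factors, stood at 1.02 and 1.34 FPKM (q = 0.215, the authors' deposited table).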
